A study of Nothobranchius furzeri with 168 samples.

Results

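Skin of male turquoise killifish (Nothobranchius furzeri) of the strain GRZ-D was compared between day 100 and day 35 of age. The 7 skin libraries of day 100 and the 6 of day 35 were taken by strain, sex, tissue and age, and they are 13 of the 168 libraries of the series. Every library came from 1 fish, the 13 fish were different animals, and each of them also gave a brain library. GRZ-D is the short-lived strain of the study, and MZM-0403 and MZCS-0403 are its longer-lived strains. The labels name no treatment, transgene or housing condition, and give the age only in days. The comparison asks how the skin transcriptome of the short-lived strain differed between a young and an older adult age. Used only beside it were skin libraries of further GRZ-D males (8 of day 21, 6 of day 147) and of males of the other strains. These were of MZM-0403 (6 of day 21, 5 of day 35, 6 of day 287) and of MZCS-0403 (6 of day 21, 4 of day 39, 3 of day 147, 2 of day 287). Brain libraries of the same 13 fish and of GRZ-D males of day 21 were used as well. Libraries of GRZ-D males of day 49 entered only a check of tissue labels and an alternative fit. That fit took all 84 libraries labelled skin, females and further ages among them.

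The turquoise killifish lives in seasonal pools, grows and matures within weeks, and is kept as a short-lived vertebrate for work on ageing. Fish skin is a living epidermis with mucous cells over a dermis that holds collagen, scales and pigment cells, and a skin sample also carries blood, nerve and immune cells. In bulk tissue, fewer cells of a type and less RNA per cell cannot be told apart. The deposited table pairs its gene IDs with no gene names, and 0 of 26739 IDs matched a RefSeq gene table. Genes are therefore described by level, tissue pattern, age course and strain, and 4 of them are given by their deposited ID without a role.

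The deposited counts were whole numbers per gene. Library totals ran from 28620376 to 31815911 at day 35 and from 25390848 to 30516474 at day 100. Marker genes could not be used to check the tissue label, so each library was correlated with the mean skin and the mean brain profile of GRZ-D at day 21, over 19473 genes on the log2 scale. Correlations with skin were 0.956 to 0.977 at day 35 and 0.947 to 0.954 at day 100, and correlations with brain were 0.378 to 0.460 and 0.369 to 0.398. The 13 profiles thus stood with skin, as their labels say. The libraries of GRZ-D males at day 49 that are labelled skin correlated at 0.966 to 0.985 with brain and at 0.370 to 0.448 with skin. Those labelled brain of the same fish correlated at 0.962 to 0.971 with skin and at 0.388 to 0.405 with brain. Both labels of day 49 thus stood against the profiles. Day 49 was left out, except in an alternative fit of every library labelled skin. Pairs of libraries correlated at 0.959 to 0.986 within day 35, at 0.972 to 0.990 within day 100 and at 0.897 to 0.949 between the ages, so each pair across the ages was less alike than each pair within an age. No pair of libraries of either age agreed within sampling noise.

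Skin differed between day 100 and day 35 over a large part of the genes, and whether more of them were higher or lower depended on the scaling. With counts scaled by TMM (trimmed mean of M-values, which sets the scale by the bulk of the genes), 10207 of 19813 genes tested were called at an adjusted p under 0.05, which is 51.5% (edgeR quasi-likelihood F-test, Benjamini-Hochberg adjustment). Of these, 4626 genes (23.3% of those tested) were higher at day 100 and 5581 (28.2%) were lower. The median log2 fold change of the called genes was 0.71 among the higher and -0.85 among the lower, and that of all genes tested was -0.03. At least 2-fold changes were called for 3428 genes (17.3%), 1205 of them higher (6.08%) and 2223 lower (11.2%). The p-values rest on a spread per gene estimated over all 27 skin libraries of GRZ-D males of days 21, 35, 100 and 147. The median SD of a gene between fish was 0.279 and 0.420 log2 CPM at days 21 and 147, beside 0.196 and 0.190 at days 35 and 100. With only the 13 libraries compared in the fit, 12225 genes were called, 5785 higher and 6440 lower. The labels give no tank, clutch or sequencing batch for these fish.

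For 7243 genes (36.6%) the 7 libraries of day 100 and the 6 of day 35 did not overlap in CPM (counts scaled to a common library size, corrected by TMM). In 3185 genes (16.1%) every library of day 100 lay above every library of day 35, and in 4058 genes (20.5%) every one lay below. Of the called genes, 66.8% of the higher and 70.4% of the lower were without overlap. A call, a change of at least 2-fold and no overlap came together in 880 higher genes (4.44%) and 1698 lower genes (8.57%).

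With TMM, the larger the change, the more one-sided it was. At least 4-fold changes were called in 102 higher genes (0.515%) and 559 lower genes (2.82%), and at least 8-fold changes in 11 higher (0.0555%) and 144 lower genes (0.727%). With counts scaled by library totals alone, the 2-fold changes lay mostly on the higher side, with 4202 higher and 1003 lower of 19813 genes. The calls with TMM also differed by level. With the genes split by mean level into 4 equal bins, 40.1% of the 4954 genes in the lowest bin were called, 695 higher and 1292 lower, and the median size of a called log2 change was 1.32. In the highest bin 58.7% were called, 1620 higher and 1288 lower, and the median size was 0.65. The bins between had 999 higher and 1519 lower genes, and 1312 higher and 1482 lower genes. The size of change that a call takes depends on the level as well, and its part in these medians was not tested. With library totals alone each bin had more higher than lower genes, 1620 and 647 in the lowest and 3080 and 428 in the highest.

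**Figure D1:**
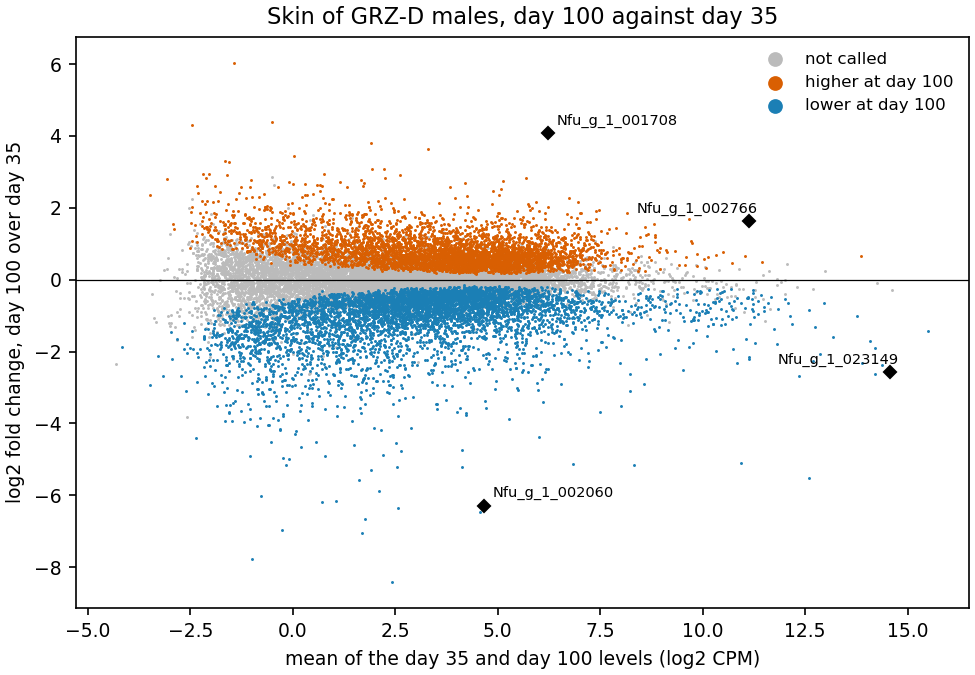
Log2 fold change of day 100 over day 35 (vertical axis) against the mean level of both ages in log2 CPM (horizontal axis) for the 19813 genes tested in skin of GRZ-D males. Each point is a gene, called genes are coloured by direction, and diamonds mark the 4 genes given by ID. Changes beyond 3 on the log2 scale lie mostly below 0.

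A few genes held a large part of the counts in skin, and this part was smaller at day 100. The 10 most counted genes of each library held 23.4% to 29.7% of its counts at day 35, with a mean of 25.9% ± 2.16 (SD, n = 6). They held 14.8% to 17.5% at day 100, with a mean of 15.7% ± 0.941 (SD, n = 7). The groups did not overlap, and the exact two-sided permutation test of the means over the 1716 possible labelings gave p = 0.00117, the smallest it can give, or 0.00291 adjusted over 5 library measures. At these depths the widest of the Wilson 95% intervals of such a share, that of replicate 4 of day 35, ran from 29.65% to 29.69%, so counting error was small beside the spread between fish. The number of genes at 1 CPM or more was 16778 ± 289 (SD, n = 6) at day 35 and 16496 ± 118 (SD, n = 7) at day 100, with an exact permutation p of 0.0117 and an adjusted p of 0.0194. The ranges, 16539 to 17346 and 16336 to 16667, overlapped. Without replicate 2 of day 35, which had 17346 such genes, the difference went from -282 to -168 genes (exact permutation adjusted p = 0.0316). These counts of genes used CPM corrected by TMM, and the TMM factors were higher at day 100. A cutoff of 1 CPM thus took a larger part of the library total at day 100. The counts of genes were not repeated with library totals alone.

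Most of the same genes led the counts at both ages, at other levels. Of the 10 most counted genes of day 35, 8 were also among the 10 of day 100. Of the 10 genes with the highest mean level over the 13 libraries, 7 were lower at day 100, 1 was higher and 2 were not called. Their joint share of the counts was 25.1% ± 1.86 (SD, n = 6) at day 35 and 14.3% ± 1.04 (SD, n = 7) at day 100. Of the first 50 such genes, 30 were lower, 2 higher and 18 not called, and their joint share was 43.7% ± 3.4 and 29.5% ± 1.74. Of the first 100, 63 were lower, 6 higher and 31 not called. Beside the 28.2% of all genes tested that were lower, the lower share was 70% in the first 10, 60% in the first 50 and 63% in the first 100. The ranking used the same 13 libraries, so a high level at day 35 alone could bring a gene into these lists. With library totals alone the lower shares were 70%, 36% and 36%, beside 10.6% of all genes. The higher shares were then 10%, 16% and 18%, beside 49.9%.

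**Figure D2:**
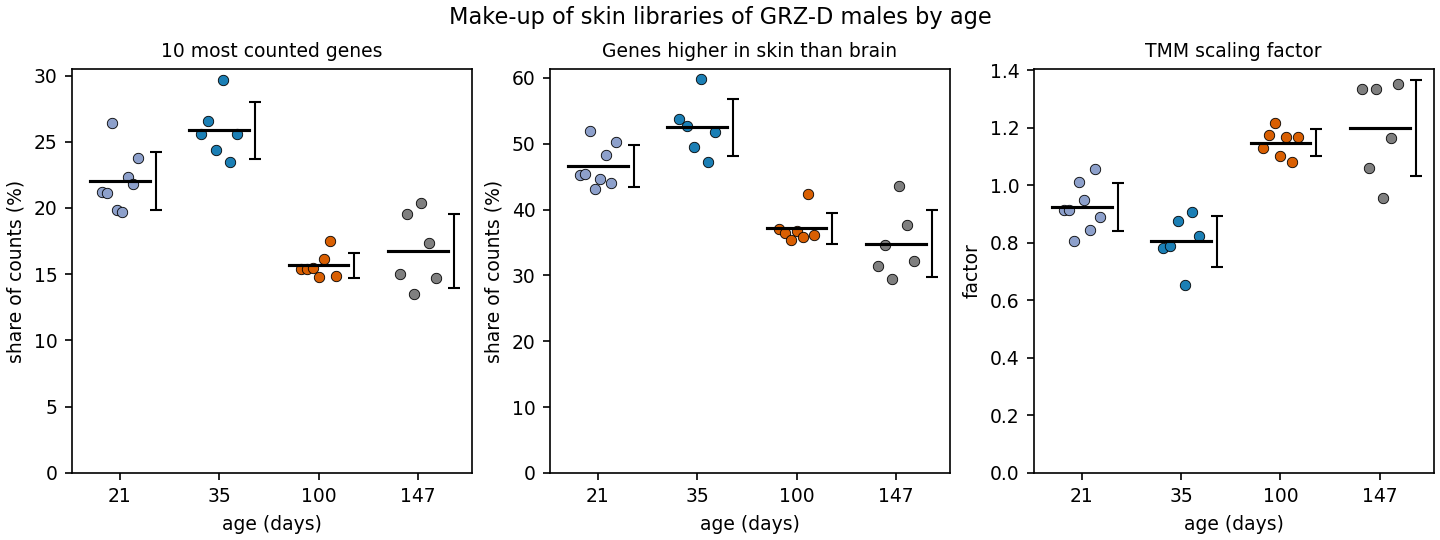
Share of counts in the 10 most counted genes of each library, share of counts in genes far higher in skin than in brain at day 21, and TMM scaling factor, in skin of GRZ-D males at 4 ages. Points are libraries, horizontal lines are means and bars are ± 1 SD; both shares were lower in the 7 libraries of day 100 than in the 6 of day 35, and the factor was higher, without overlap.

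The scaling moved with age as well. The TMM factor was 0.654 to 0.908 at day 35 and 1.08 to 1.22 at day 100. Size factors of the median-of-ratios kind gave 4943 higher genes (24.9%) and 5311 lower genes (26.8%). Scaling by library totals alone, a choice made after the data were seen, gave 9892 higher genes (49.9%) and 2104 lower genes (10.6%), so that 82.5% of the called genes were higher against 45.3% with TMM. It moved the median log2 change of all genes from -0.03 to 0.48. Of the 4626 genes called higher with TMM, 4626 were also higher with library totals alone. Of the 5581 called lower, 2104 were also lower and 86 were higher. The counts of at least 4-fold changes became 365 higher and 265 lower, so their balance turned with the scaling, while at least 8-fold changes, at 43 higher and 83 lower, still lay more on the lower side. Directions of genes are given relative to the bulk of the genes, as TMM sets it, whereas shares of counts are of library totals.

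Nfu_g_1_001708 had the widest gap between the ages among the higher genes that qualified for naming, of which there were 453. Qualifying took a call, a change of at least 2-fold, no overlap between the ages and 10 CPM or more in the higher group. The lack of overlap in the 4 genes given by ID is thus part of how they were chosen. Its CPM in the 6 libraries of day 35 were 7.44 at the lowest, 7.82 at the median and 10.6 at the highest. In the 7 libraries of day 100 they were 58.7, 152 and 256. Every library of day 100 lay above the highest of day 35, and the libraries of day 100 differed among themselves far more than those of day 35. The means were 8.44 ± 1.26 CPM (SD, n = 6) and 142 ± 69.7 CPM (SD, n = 7), a log2 fold change of 4.07 (SE 0.64, edgeR adjusted p = 1.03e-05) or 16.8-fold. At day 21 the 8 libraries had 0.896 to 30.7 CPM with a median of 5.01, and at day 147 the 6 libraries had 40.6 to 177 CPM with a median of 112. The young ages lay low and the older ages high, with 1 library of day 21 between them.

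Nfu_g_1_002766 was the most counted of the qualifying higher genes, at rank 59 over the 13 libraries. At day 35 it had 768 CPM at the lowest, 1024 at the median and 1703 at the highest. At day 100 it had 2439, 3348 and 5387 CPM. The groups did not overlap, and replicate 3 of day 35 and replicate 12 of day 100 stood highest in their groups. The mean rose from 1089 ± 332 CPM (SD, n = 6) to 3395 ± 1012 CPM (SD, n = 7), a log2 fold change of 1.64 (SE 0.20, edgeR adjusted p = 2.87e-07). At day 21 it had 936 ± 193 CPM (SD, n = 8) and at day 147 it had 3755 ± 570 CPM (SD, n = 6).

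Nfu_g_1_002060 had the widest gap among the 739 lower genes that qualified. At day 35 its CPM were 39.0 at the lowest, 50.3 at the median and 65.9 at the highest. At day 100 they were 0.319, 0.621 and 1.01, which rest on 9 to 33 counts in a library. The gene was thus counted in every library of day 100, at a small part of its level at day 35. The mean fell from 50.4 ± 9.36 CPM (SD, n = 6) to 0.637 ± 0.253 CPM (SD, n = 7), a log2 fold change of -6.29 (SE 0.74, edgeR adjusted p = 2.11e-07) or 78.1-fold lower. At day 21 the 8 libraries had 5.60 to 42.2 CPM with a median of 13.7. At day 147 the median was 1.01 CPM, but replicate 5 had 22.3 CPM, and the 6 libraries had a mean of 4.61 ± 8.69 CPM (SD, n = 6).

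Nfu_g_1_023149 was the most counted of the qualifying lower genes, at rank 3 over the 13 libraries, and at day 21 it was higher in skin than in brain by 7.72 on the log2 scale. At day 35 it had 35356 CPM at the lowest, 43158 at the median and 45582 at the highest. At day 100 it had 1596, 6797 and 12679 CPM. The groups did not overlap, and the libraries of day 100 covered a wider range in proportion to their level. The mean fell from 41837 ± 4004 CPM (SD, n = 6) to 6990 ± 3588 CPM (SD, n = 7), a log2 fold change of -2.58 (SE 0.33, edgeR adjusted p = 7.07e-07) or 5.99-fold lower. At day 21 it had 21584 ± 5364 CPM (SD, n = 8), and at day 147 it had 5999 ± 3628 CPM (SD, n = 6). With library totals alone the log2 fold changes of the 4 genes were 4.57, 2.14, -5.79 and -2.07, each in the same direction.

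**Figure D3:**
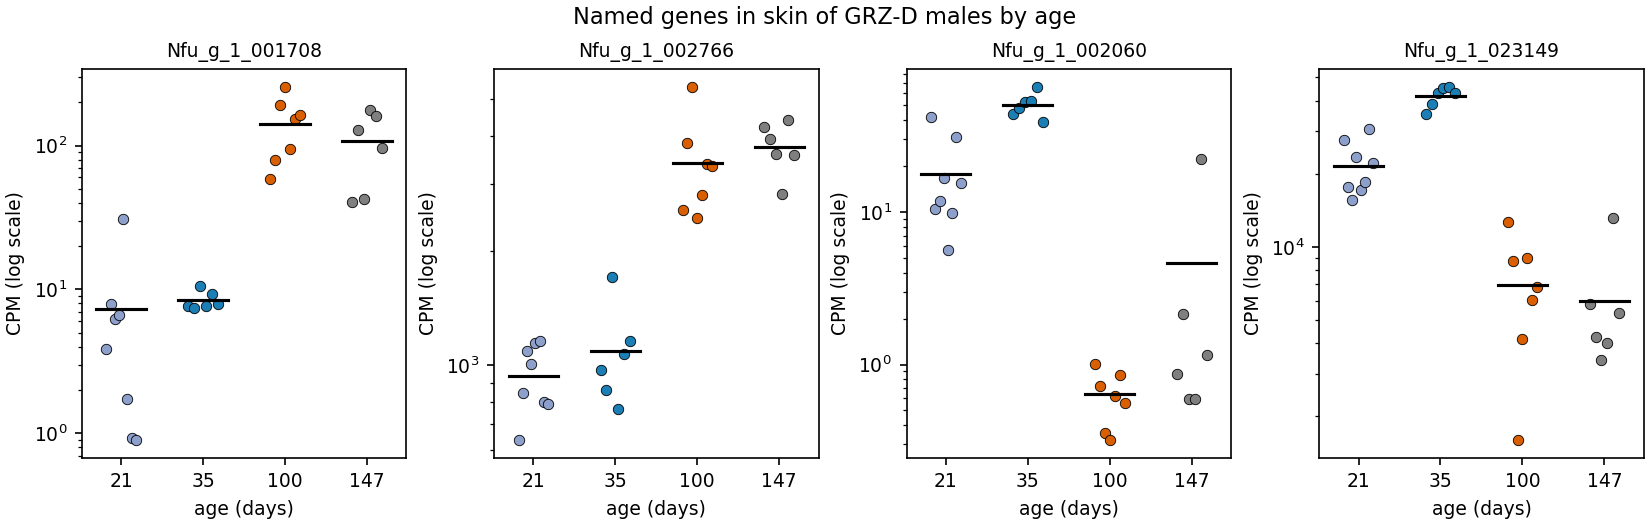
Level in CPM (log scale) of the 4 genes given by ID in each skin library of GRZ-D males at days 21, 35, 100 and 147. Points are libraries and horizontal lines are arithmetic means. In each panel the libraries of day 35 and day 100 do not overlap, which the rule for choosing the genes required.

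The counts of large falls depended in part on a single library, replicate 2 of day 35. Over the 144 genes that fell at least 8-fold, the median log2 CPM of a library was 0.86 to 1.43 in 5 libraries of day 35, 2.54 in replicate 2 of day 35, and -2.21 to -1.60 in the 7 libraries of day 100. Replicate 2 was the highest of the 13 libraries for 66 of these genes. All 6 libraries of day 35 lay above all 7 of day 100 in this median, but the genes were chosen by their fall between these same libraries. Without replicate 2, 105 of 19976 genes tested fell at least 8-fold and 401 at least 4-fold, and 128 of the 144 were still called lower. Over the 102 genes that rose at least 4-fold, the median log2 CPM of a library was -1.20 to -0.71 at day 35 and 0.45 to 1.43 at day 100. Replicate 10 had the value of 0.45, below the 1.05 to 1.43 of the other 6 libraries of day 100 and above all 6 of day 35. The rising genes were likewise chosen by their change in these libraries, so the separation of the ages is no separate result. Genes that went from absence to presence were few and low. At most 3 counts in every library of day 35 and more than 3 in every library of day 100 were found in 20 genes, with a highest mean of 1.35 CPM. The reverse was found in 20 genes, with a highest mean of 1.75 CPM.

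Genes typical of skin held a smaller share of the counts at day 100, and for genes typical of brain the counts of calls depended on replicate 2 of day 35. Genes were classed by the mean log2 level of skin and brain at day 21, at a difference of at least 4. The skin libraries of day 21 are in the same fit as days 35 and 100 and share its filter and its estimate of the spread. The 1403 genes far higher in skin held 47.2% to 59.8% of the counts at day 35 and 35.4% to 42.4% at day 100, with means of 52.5% ± 4.30 (SD, n = 6) and 37.1% ± 2.41 (SD, n = 7). The groups did not overlap (exact permutation p = 0.00117, adjusted p = 0.00291). Of these genes 251 (17.9%) were higher and 416 (29.7%) lower, beside 23.3% and 28.2% of all genes tested, and their median log2 change was -0.10 beside -0.03. With library totals alone 37.5% were higher and 15.5% lower, with a median of 0.41 beside 0.48. With TMM and no threshold of size, the share of lower genes in the skin class was thus near that of all genes. At least 2-fold changes were more frequent in this class in both directions, 17.9% lower beside 11.2% and 9.19% higher beside 6.08%. The share of counts that the class held was smaller at day 100.

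Of the 2007 genes far higher in brain, 1255 passed the filter on low counts. Of these 102 (8.13%) were higher and 442 (35.2%) lower, with a median log2 change of -0.50. The share of the counts in the 2007 genes was 0.207% to 0.519% at day 35 and 0.308% to 0.327% at day 100, with means of 0.289% ± 0.115 (SD, n = 6) and 0.319% ± 0.00728 (SD, n = 7), and the exact permutation p was 0.607. Replicate 2 of day 35 had the share of 0.519%, and the other 5 libraries of day 35 had 0.207% to 0.268%. Without that library 120 of 1269 such genes were higher and 274 lower, or 21.6% lower beside 23.9% of all genes tested, and the median was -0.24. The share of the counts was then higher at day 100, by 0.0759 percentage points (exact permutation p = 0.00253, adjusted p = 0.00421). Replicate 2 stood apart on this same share, so the value without it is no separate test. Leaving out any other library gave exact permutation adjusted p of 0.628 to 0.949. This share is of library totals without TMM, whereas the calls and the median with TMM are relative to the bulk of the genes. With library totals alone 259 of the 1255 were higher and 218 lower. The part of brain or nerve RNA in these values was not tested.

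The ages on either side were compared in other libraries. Between day 21 and day 147, which share no library with days 35 and 100, 12152 of 19813 genes were called (61.3%), 6342 higher (32%) and 5810 lower (29.3%) at day 147. Of the 4626 genes higher at day 100 than at day 35, 2968 (64.2%) were also higher at day 147 than at day 21 and 296 (6.4%) were lower. Of the 5581 lower genes, 3292 (59.0%) were also lower and 380 (6.81%) were higher. The shared genes made up 46.8% of those higher and 56.7% of those lower between day 21 and day 147. Among the genes that rose at least 2-fold, 892 of 1205 (74.0%) were higher at day 147 than at day 21. Among those that fell at least 2-fold, 1147 of 2223 (51.6%) were lower, and among those that fell at least 8-fold, 59 of 144 (41%) were. Both comparisons came from a single fit and share its estimate of the spread. The libraries of day 147 were uneven, with totals from 12825605 to 30634381. Replicate 3 of day 147 had 1.85% of its counts in genes far higher in brain, beside 0.292% to 0.458% in the others of that age. It correlated at 0.882 with the skin profile and at 0.511 with the brain profile of day 21. The comparison was not repeated without it.

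The median level of the genes that rose at least 2-fold was 1.59 log2 CPM at day 21 and 1.41 at day 35, but 2.72 at day 100 and 2.58 at day 147. Day 21 was nearer to day 35 than to day 100 for 82.0% of these genes, and day 147 was nearer to day 100 for 85.1%. Over all genes tested these shares were 65.3% and 69.7%. The genes that fell at least 2-fold had median levels of 1.74, 2.36, 0.70 and 1.18 log2 CPM in the same order of ages. These medians were highest at day 35 and lowest at day 100, with days 21 and 147 between. For the falling genes day 21 was nearer to day 35 in 71.7% and day 147 nearer to day 100 in 75%. Both sets of genes were chosen by their change between days 35 and 100. That choice alone can set these 2 ages furthest apart, so the order of the 4 ages was not tested. Day 35 against day 21 gave 5868 called genes (29.6%), 2962 higher (14.9%) and 2906 lower (14.7%), and day 147 against day 100 gave 5880 (29.7%), 3570 higher (18%) and 2310 lower (11.7%). The genes that fell at least 2-fold had a median log2 change of 0.48 in the first of these comparisons and 0.44 in the second, and those that rose had -0.16 and -0.03. These comparisons share the libraries of day 35 or of day 100 with the comparison of day 100 and day 35, so their values are given side by side only.

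An age axis was drawn from the genes that changed at least 2-fold between day 21 and day 147 (25.8% of those tested), 3124 higher and 1987 lower, with the mean of day 21 set to 0 and that of day 147 to 1. The libraries of day 35 lay at 0.166 to 0.305, with a mean of 0.226 ± 0.0475 (SD, n = 6). Those of day 100 lay at 0.623 to 0.724, with a mean of 0.667 ± 0.0370 (SD, n = 7). The libraries of day 147, whose mean sets the upper end, ran from 0.729 to 1.168 (SD 0.192, n = 6). The libraries of day 35 and day 100 were not in the comparison that chose these genes, but they shared its fit, filter and estimate of the spread. All 6 libraries of day 35 lay below all 7 of day 100. On the first principal component of the 27 libraries, with 38.4% of the variance, the libraries of days 21 and 35 lay on one side and those of days 100 and 147 on the other. The second, with 12.4%, set the 6 libraries of day 35 above the 7 of day 100.

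**Figure D4:**
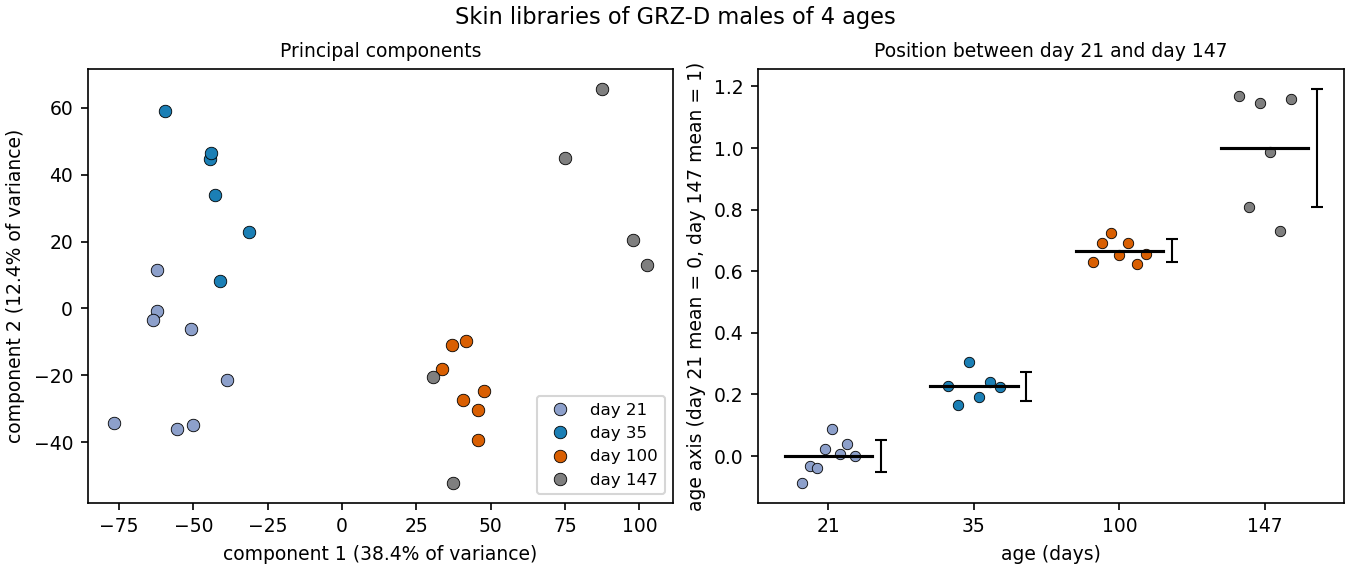
Left, the 27 skin libraries of GRZ-D males on the first 2 principal components of 19813 genes (log2 CPM). Right, position of each library on the axis from the mean of day 21 (0) to the mean of day 147 (1), with means and ± 1 SD; day 35 lies at 0.166 to 0.305 and day 100 at 0.623 to 0.724.

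Fewer genes were called in the brain of the same 13 fish than in their skin. Both counts depend on a spread per gene that the 2 tissues share in a joint fit. In a fit of the 26 skin and brain libraries, 9513 of 21431 genes were called in brain (44.4%), 4235 higher (19.8%) and 5278 lower (24.6%) at day 100. In the same fit 14011 genes were called in skin (65.4%). At least 2-fold changes were called for 1795 genes in brain (8.38%) and 4100 in skin (19.1%), and the median size of the log2 change was 0.26 in brain and 0.50 in skin. The change differed between the tissues for 10380 genes (48.4%), more positive in skin for 4846 (22.6%) and more negative in skin for 5534 (25.8%). Opposite directions, each called and with the difference called, were found in few of the 21431 genes. Of them, 645 were higher in skin and lower in brain, and 437 were lower in skin and higher in brain. In the same fit 2493 of the 21431 genes were higher and 3328 lower in both tissues.

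Of the genes higher in skin in the fit of 27 libraries, 1960 of 4602 tested in brain (42.6%) were also higher in brain, beside 19.4% of all genes tested in both, and 7.97% were lower. Of the lower genes, 2800 of 5526 (50.7%) were lower in brain, beside 26.1%, and 4.13% were higher. The shared genes made up 51.6% of those higher and 54.7% of those lower in brain. Libraries of the same fish are not independent fish, although their deviations from the group means correlated weakly, at -0.0708 to 0.125.

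The 4 genes given by ID were chosen by their change in skin, so their difference from brain is a description. Nfu_g_1_001708 had 1.18 to 2.24 CPM in brain at day 35 and 2.11 to 3.30 CPM at day 100, a log2 change of 0.79 (SE 0.29, edgeR adjusted p = 0.0265), and its skin change minus its brain change was 3.31 (edgeR adjusted p = 1.68e-07). Nfu_g_1_002766 had a log2 change of 0.48 in brain (SE 0.20, edgeR adjusted p = 0.0508), and its skin change was larger by 1.19 (edgeR adjusted p = 0.00118). Nfu_g_1_002060 stayed in brain at 19.2 to 21.8 CPM at day 35 and 14.2 to 19.0 CPM at day 100, a log2 change of -0.34 (SE 0.12, edgeR adjusted p = 0.0222), and its skin change minus its brain change was -5.91. Nfu_g_1_023149 had 508 CPM in the brain of replicate 1 of day 35 and 95.7 to 137 CPM in the other brain libraries of day 35. At day 100 it had 24.2 to 52.9 CPM in brain, a log2 change of -2.34 (SE 0.38, edgeR adjusted p = 2.16e-05). The brain library of replicate 1 of day 35 also correlated most with the skin profile, at 0.460, among those of both ages. The part of skin RNA in the brain values of Nfu_g_1_023149 was not tested. The changes of this gene in skin and brain differed by -0.22 (SE 0.53, edgeR adjusted p = 0.76), so no difference between the tissues was detectable.

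Skin of the longer-lived strains was compared in libraries of other fish, at other ages. In MZM-0403 males, day 287 against day 35 gave 8994 called genes of 19247 (46.7%), 4244 higher (22.1%) and 4750 lower (24.7%). Of the GRZ-D genes higher at day 100, 2233 of 4456 tested in both (50.1%) were higher in MZM-0403 at day 287, beside 22.2% of all genes tested in both, and 3.12% were lower. Of the lower genes, 2995 of 5384 (55.6%) were lower, beside 24.7%, and 3.71% were higher. The shared genes made up 53.4% of the higher and 64.3% of the lower genes of MZM-0403.

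In MZCS-0403 males, day 147 against day 39 gave 8003 called genes of 20676 (38.7%), 3953 higher (19.1%) and 4050 lower (19.6%). Of the GRZ-D genes higher at day 100, 1494 of 4537 (32.9%) were also higher there, beside 18.5%, and 7.78% were lower. Of the lower genes, 2005 of 5512 (36.4%) were lower, beside 20.8%, and 8.22% were higher. The shared genes made up 41.5% and 49.8% of the genes of MZCS-0403. This comparison had 4 and 3 libraries, and the ages of the strains differ, so the strains were not set against each other. In the GRZ-D comparisons of day 100 with 35 and of day 147 with 21 and in those of both longer-lived strains, 904 genes were higher and 1411 lower each time, of 18762 tested in all of them.

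**Figure D5:**
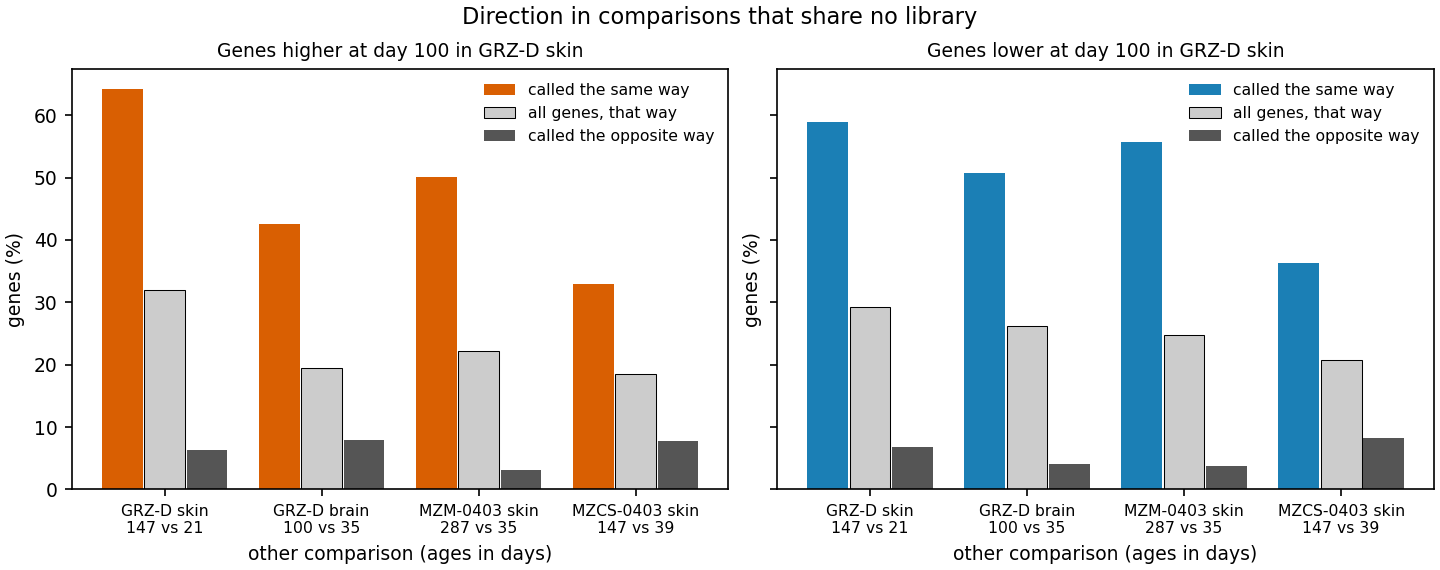
Share of the genes called in skin of GRZ-D males at day 100 against day 35 that were called the same way (coloured) or the opposite way (dark grey) in 4 comparisons without a shared library, beside the share of all genes called that way (light grey). The coloured bars, from 32.9% to 64.2%, stand above the light grey bars in each comparison.

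Across strains the genes given by ID differed in their course. Nfu_g_1_001708 was higher at the older age in MZM-0403 by 2.41 on the log2 scale (SE 0.40, edgeR adjusted p = 0.000124) and in MZCS-0403 by 3.76 (SE 1.01, edgeR adjusted p = 0.0101). Its other ages there did not follow that order. In MZM-0403 it had 23.1 ± 9.80 CPM at day 21 (SD, n = 6), above the 7.91 ± 3.08 CPM of day 35 (SD, n = 5). In MZCS-0403 it had 1.47 to 141 CPM with a median of 45.3 at day 21 (n = 6), 30.1 ± 4.94 CPM at day 147 (SD, n = 3) and 8.21 and 8.22 CPM in the 2 libraries of day 287. Nfu_g_1_002060 was lower at the older age, with log2 changes of -1.81 (SE 0.46, edgeR adjusted p = 0.0037) and -3.23 (SE 0.70, edgeR adjusted p = 0.00292). Nfu_g_1_023149 had log2 changes of -0.91 (SE 0.28, edgeR adjusted p = 0.0138) and -3.52 (SE 0.44, edgeR adjusted p = 8.6e-05). Nfu_g_1_002766 had log2 changes of 0.33 (SE 0.72, edgeR adjusted p = 0.727) in MZM-0403 and -1.45 (SE 0.74, edgeR adjusted p = 0.134) in MZCS-0403, neither past the threshold. Its CPM was 5.10 to 111 in the MZM-0403 libraries of days 35 and 287 and 41.5 to 787 in the MZCS-0403 libraries of days 39 and 147, below the 768 CPM of the lowest GRZ-D library of day 35 except in 1 library. The CPM of the strains were scaled in separate fits.

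A difference between the ages in the spread between fish was not detectable. The root mean square distance of a library from the mean of the others of its group was 0.441 ± 0.0817 on the log2 scale (SD, n = 6) at day 35 and 0.379 ± 0.0589 (SD, n = 7) at day 100, with an exact permutation p of 0.138 and an adjusted p of 0.172. The median SD of a gene between fish was 0.196 log2 CPM at day 35 and 0.190 at day 100, and 54.8% of 16746 genes varied more at day 35. At day 21 it was 0.279 and at day 147 it was 0.420.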

How the data were processed

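Per the labels' protocols, skin and brain RNA of each fish was purified with a column kit, and a TruSeq RNA v2 kit was used for the libraries. Per the submitters' processing notes, bcl2fastq 1.8.4, STAR 2.5.1b and featureCounts 1.5.0 were used. The genome build, the annotation and the use of strand are not given in the sources used here, so overlapping genes and near-identical copies are uncertain. The authors deposited raw whole-number counts per gene, without normalisation, in 168 columns, each matched to 1 sample by its title.

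The tests used edgeR 4.0.16 in R 4.3.3: quasi-likelihood fit, robust estimation, TMM scaling, and edgeR's filter by group at a minimum count of 10, which removed 6926 genes with 0.0518% of the counts. Day 100 and day 35 were compared in a fit of 27 skin libraries of GRZ-D males of days 21, 35, 100 and 147, with 1 mean per age. The median biological coefficient of variation was 0.225. A gene was called at a Benjamini-Hochberg adjusted p under 0.05 over all genes tested. Skin and brain were compared in a fit of 26 libraries, MZM-0403 in a fit of 17 and MZCS-0403 in a fit of 15. Per the labels, skin and brain with the same number come from the same fish, and their deviations from the group means correlated at -0.0708 to 0.125. The SE is the log2 change divided by the square root of F. Log2 levels used a prior count of 2. Library measures were tested by exact permutation in scipy 1.17.1. Intervals cover counting error only.

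A gene qualified for naming when called, changed at least 2-fold, without overlap between the ages and with 10 CPM or more on average in the group where it was higher. In each direction, the gene with the widest gap and the one with the highest mean are named. The gap is the log2 ratio of the lowest library of the higher group to the highest of the lower group, with 0.5 CPM added. The groups, lists, tests and alternatives were chosen with earlier results of these data known. Lists of pathway genes and cell type markers use gene symbols and could not be applied. The method was run on simulated counts in which only a small part of the genes changed, unlike these data. That run therefore does not bear on the choice of scaling. Alternatives were limma 3.58.1 voom, DESeq2 1.42.0, other scalings, filters and sets of libraries, replicate blocks, and leaving out each library in turn.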

Additional observations from a re-analysis of the deposited data

Results flagged for a closer look

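Within single groups, 26 sets of library values were checked for a library far from the others by Dixon's test at the 95% level, and 6 had one. Chance flags about 1 in 20 such sets. The library measures were checked at days 35 and 100 only, so those of day 147 are not covered. At day 35, replicate 2 stood apart with 17346 genes at 1 CPM or more and with 0.519% of its counts in genes far higher in brain. At day 100, replicate 8 stood apart with 42.4% of its counts in genes far higher in skin. At day 21, replicate 5 had 30.7 CPM of Nfu_g_1_001708. At day 147, replicate 5 had 22.3 CPM of Nfu_g_1_002060 and 13184 CPM of Nfu_g_1_023149, each the highest of its group.

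The change from day 35 to day 100 differed between skin and brain, by the test of the difference itself, for 3 of the genes given by ID. Skin minus brain was 3.31 on the log2 scale for Nfu_g_1_001708, 1.19 for Nfu_g_1_002766 and -5.91 for Nfu_g_1_002060. Over all genes tested the difference was called for 10380.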

How the results depend on the processing

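The count of 10207 genes changed between day 100 and day 35 ran from 9326 to 9950 when each library was left out. Under the other alternatives it ran from 8206 to 13293 (limma voom). The count of 8206 came with all 84 libraries labelled skin in the fit, among them those of day 49 with brain profiles. In the joint fit with brain, which was not one of these alternatives, 14011 of 21431 genes were called in skin. No named gene or library measure changed direction under the alternatives run for it, and the library measures were not run with other scalings. The balance of higher and lower genes turned with library totals alone, as given with the results, and it also turned where it was near even: between day 35 and day 21 (2885 higher, 2993 lower with median-of-ratios factors), between day 147 and day 21 (5868, 5943 with limma voom), in MZM-0403 (5281, 5033 with limma voom), in MZCS-0403 (4197, 3911 with median-of-ratios factors) and among genes shared with day 147 against 21 (3190, 3084 with the same factors). With library totals, a choice made after the data were seen, at least 4-fold changes moved from 102 to 365 higher and from 559 to 265 lower genes, 8-fold higher genes from 11 to 43, 8-fold lower genes from 144 to 83, and lower genes of the brain class from 442 to 218. Without replicate 2 of day 35 the latter were 274 and the difference in the share of counts in that class was 0.0759 percentage points (exact permutation adjusted p = 0.00421, and up to 0.949 under the other alternatives). Over all libraries left out it ran from 0.0134 to 0.0759. At least 8-fold higher genes, 11 in all, were 18 without replicate 1 and 17 without replicate 5 of day 35. GRZ-D and MZCS-0403 shared 3499 genes with the same direction, and 5500 with limma voom. Left-out libraries gave 9601 to 10310 genes for the difference between tissues, 8711 to 10007 for brain, 8122 to 9905 for MZM-0403 and 5847 to 7431 for MZCS-0403. Genes changed the same way ran from 5840 to 6119 with day 147 against 21, from 4841 to 5139 with MZM-0403 and from 3273 to 3420 with MZCS-0403. Of the other library measures, the difference in the share of the 10 most counted genes ran from -10.7 to -9.46, in genes at 1 CPM or more from -329 to -168, in the skin class share from -16.4 to -13.9 and in distance from -0.0757 to -0.0331. The 4 genes given by ID stayed called under each alternative run, with adjusted p at most 0.0111.

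No paired analysis was possible for day 100 against day 35 because the groups share no replicate number. With the fish as a replicate block, the difference between skin and brain was called for 9905 genes. Ages within GRZ-D, MZM-0403 or MZCS-0403 share only a number, and deviations of same-numbered fish correlated at -0.183 to 0.193 over the 8 pairs of skin groups compared. With the replicate number as a block, 3688 genes were called between day 35 and day 21 (5868 without) and 5307 in MZM-0403 (8994 without).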
